A study of Mus musculus with 12 samples.

Results

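Pde6c, Adamts6, Cd96 and Dpp4 are 4 genes whose signal was lower in granulocyte-monocyte precursors (GMPs) of Gfi1 knock-out mice than in those of wild-type mice. They were picked from 14201 measured genes because of that difference, so the difference itself is given here as a description, with no test. The platform annotation gives them 37 of the 105661 probe sets in the table: 24 for Dpp4, 7 for Adamts6, 4 for Cd96 and 2 for Pde6c. A probe set is a group of short probes on the array that read the same stretch of RNA, here mostly an exon or part of one, and a gene value is the median polish of its probe sets on the log2 scale.

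GMPs are progenitors in the bone marrow from which granulocytes and monocytes develop. They were sorted by flow cytometry from C57BL/6 mice of 4 genotypes, and total RNA was amplified and measured on Mouse Gene 1.0 ST arrays, 3 for each genotype. The groups were wild-type mice (WT), Gfi1 knock-out mice (KO), human Gfi1-wt knock-in mice carrying the common human form (wtKI) and human Gfi1-SNP knock-in mice carrying a variant human form studied for its part in acute myeloid leukaemia (SNP). All groups shared the strain and had no treatment named in the labels, which do not give the age, the construction of the alleles, or whether an array holds 1 mouse or a pool. A p-value below therefore refers to the spread among arrays within groups, part of which may be technical. That spread is estimated over the 4 groups together, unless a fit on fewer arrays is named.

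GFI1 is a zinc-finger protein that represses transcription and favours the granulocyte over the monocyte fate. DPP4, also called CD26, is a cell-surface peptidase that removes a dipeptide from the start of chemokines such as CXCL12 and of several haematopoietic growth factors. CD96 is a surface receptor of the immunoglobulin superfamily, best known on T and natural killer (NK) cells, where it binds the nectin-like ligand PVR. ADAMTS6 is a secreted metalloprotease of the extracellular matrix, and PDE6C is the catalytic subunit of the phosphodiesterase that breaks down cyclic GMP in cone photoreceptors.

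KO 1 and SNP 1 stood apart from the other arrays. Their median correlations with the other arrays were 0.701 and 0.633, against 0.836 to 0.886 for the other 10, and the scatter of probe sets within genes was 0.63 on both (log2), against 0.28 to 0.39. Y-linked genes were low on WT 3, wtKI 2 and wtKI 3 (mean 2.96 to 3.14) and between 7.50 and 8.21 on the other arrays, so the arrays from females belong to WT and wtKI. The 13 measured GMP and primary granule genes had a mean level of 8.50 to 9.01 on all arrays, Mpo, the myeloperoxidase of these cells, being at 11.53 in WT and 11.49 in KO. Single genes of this list differed more, Csf2rb being at 7.16 in WT and 8.34 in KO. SNP 1 had the highest mean of all arrays for the late neutrophil list (10.64, the others 5.98 to 7.40), the erythroid list (9.57, the others 5.53 to 7.20) and the B-lineage list (8.67, the others 5.22 to 6.34). KO 1 came next in the erythroid list (7.20) and the B-lineage list (6.34), but not in the late neutrophil list (6.99). The targeted gene, Gfi1, was at 5.78, 5.83 and 6.39 on the WT arrays and at 6.46, 6.91 and 6.70 on the KO arrays. Whether its probe sets lie in the deleted part is not given in the sources used here, so they do not check the KO label.

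Dpp4 was lower in KO at every probe set. Its gene value was 8.78, 7.84 and 8.56 on WT 1 to WT 3 and 6.19, 6.53 and 7.49 on KO 1 to KO 3. The lowest WT array, WT 2, lay above the highest KO array, KO 3. Such a gap, with all KO arrays below all WT arrays, was found for 6.1% of genes. The means were 8.39 ± 0.49 in WT and 6.74 ± 0.67 in KO (SD, n = 3), a difference of -1.65 ± 0.33 (standard error of the fit), or 3.14-fold lower. All errors given with a log2 difference below are standard errors of the limma fit with 3 arrays per group.

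**Figure D1:**
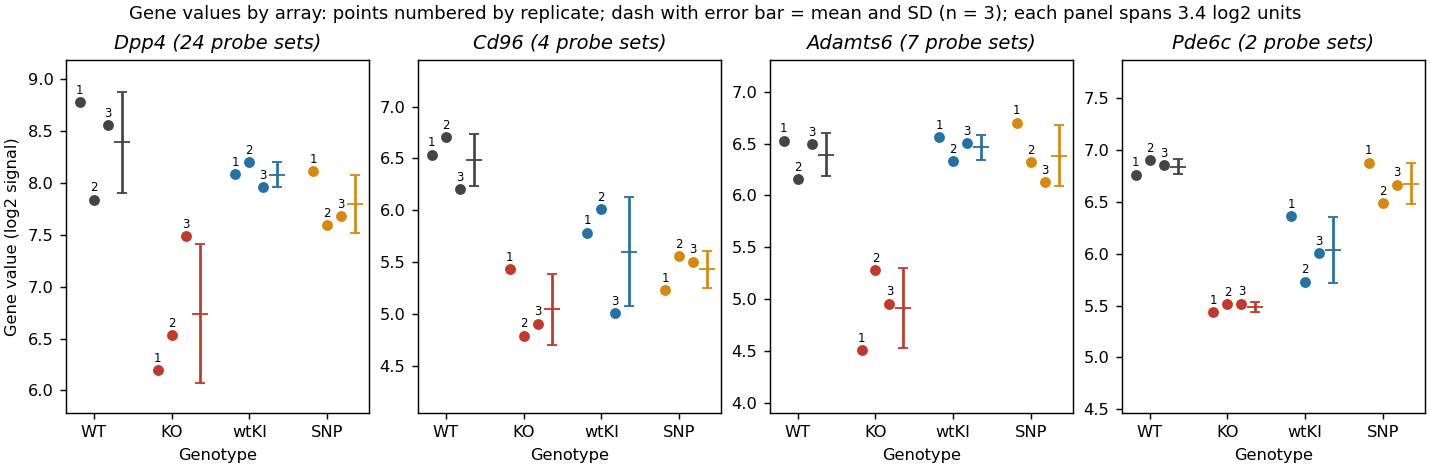
Gene values (log2 signal) of Dpp4, Cd96, Adamts6 and Pde6c on the 12 arrays, by genotype; points are arrays numbered by replicate, and the dash with its error bar is the mean and SD (n = 3). In each panel all 3 KO arrays lie below all 3 WT arrays, while the knock-in arrays take a different place for each gene: Cd96 on the wtKI and SNP arrays lies below WT, and Adamts6 on them lies at the WT level. Levels are not comparable between panels.

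The 24 Dpp4 probe sets had KO means below the WT means by -0.55 to -3.72, with a median of -1.61. In 15 of the 24 all KO arrays lay below all WT arrays, where 6.32% of all probe sets did so. Among the 867 genes with at least 20 probe sets, 8 genes (0.923%), Dpp4 among them, had every probe set lower in KO. Dpp4 was chosen for its lower values in KO, so these counts describe it and are no support for the difference. At probe set 10483069, which had the least spread in WT (SD 0.13), the WT arrays read 7.70, 7.51 and 7.44 and the KO arrays 5.60, 6.09 and 6.66. The KO arrays lay apart from WT there. At 10483063, which had the largest difference, the WT arrays read 10.41, 9.64 and 10.60 and the KO arrays 2.68, 7.91 and 8.92. The size of that difference rests mostly on KO 1, which read under the 5th percentile of its own probe sets at this point. At 10483064, which had the smallest difference, the WT arrays read 7.23, 6.64 and 7.46 and the KO arrays 7.80, 5.15 and 6.73. Here KO 1 was above all WT arrays, and the groups overlapped.

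The KO arrays differed from each other more for Dpp4 than the WT arrays did. Taken over the 24 probe sets, the median distance from the WT mean was -2.11 on KO 1, -1.84 on KO 2 and -0.90 on KO 3. The distances ran from -7.54 to 0.69 on KO 1, from -5.29 to -0.92 on KO 2 and from -2.18 to 0.37 on KO 3. KO 2 lay below all WT arrays at 23 of the 24 probe sets, KO 1 at 19 and KO 3 at 16. Without KO 1, all 24 probe sets still had lower KO means, with a median of -1.33.

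**Figure D2:**
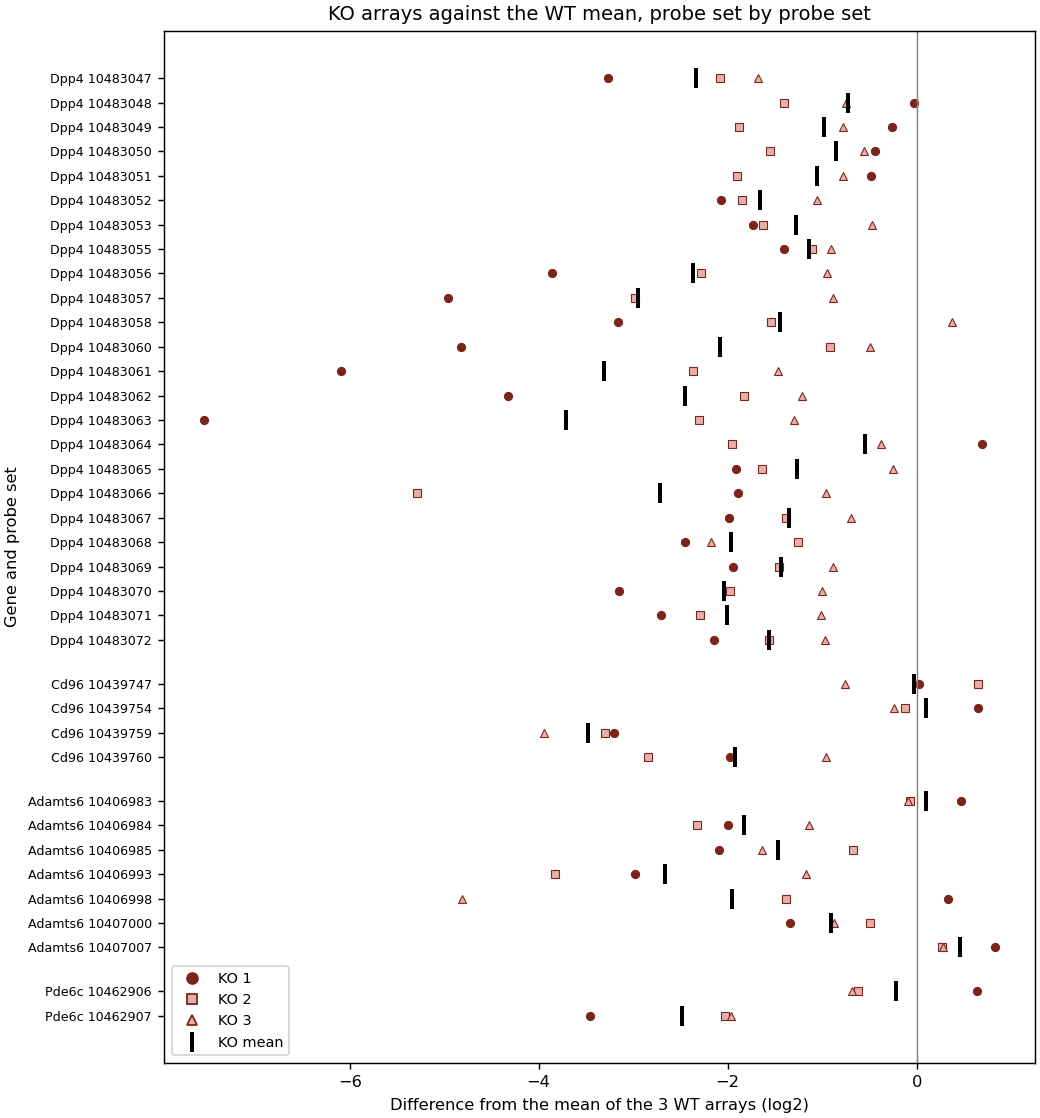
Difference of each KO array from the mean of the 3 WT arrays (log2, horizontal axis) at each of the 37 probe sets (vertical axis, grouped by gene); symbols mark KO 1, KO 2 and KO 3, and the upright bar marks their mean. All 24 Dpp4 bars lie left of 0, whereas in Cd96, Adamts6 and Pde6c some bars lie between -0.22 and 0.46 and the others between -0.90 and -3.48.

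The wtKI arrays read near the WT level for Dpp4, while SNP 2 and SNP 3 read below all WT arrays. The gene value was 8.08, 8.20 and 7.96 in wtKI and 8.12, 7.59 and 7.68 in SNP. Both groups lay above all KO arrays and overlapped WT, SNP only through SNP 1. Over the 24 probe sets the median distance from the WT mean was -0.32 on SNP 1, -0.78 on SNP 2 and -0.71 on SNP 3. It was -0.90 on KO 3. SNP 2 and SNP 3 each lay below all WT arrays at 17 probe sets, SNP 1 at 10 and KO 3 at 16. The order of the means was WT, wtKI (8.08 ± 0.12), SNP (7.80 ± 0.28) and KO (SD, n = 3). The step of 0.31 from WT to wtKI was within the pooled SD of these groups (0.36), the step of 0.29 from wtKI to SNP was above it (0.22) but with overlapping arrays, and the step of 1.06 from SNP to KO exceeded it (0.51). The differences from WT were -0.31 ± 0.33 in wtKI and -0.60 ± 0.33 in SNP. These comparisons share the WT or KO arrays that chose the genes and carry no test. Of the 24 probe sets, 22 had a lower mean in wtKI than in WT (52.4% of all probe sets did) and 20 a lower mean in SNP (57.5%). All wtKI arrays lay below all WT arrays at 3 of them (6.4% of all) and all SNP arrays at 7 (12.1%). All KO arrays lay below all wtKI arrays at 14 (6.02%) and below all SNP arrays at 8 (5.68%). The KO mean was the lowest of the 4 genotypes at 19 of the 24. Among the others, 10483070 read 7.53, 6.83 and 6.48 in WT, 3.80, 4.97 and 5.95 in KO, 3.23, 6.56 and 3.46 in wtKI and 5.54, 3.12 and 3.07 in SNP. At that probe set the knock-in arrays other than wtKI 2 and SNP 1 read lower than every KO array.

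The set of RefSeq promoter windows used here held Dpp4 and Cd96 among the 4 genes. Their windows are shown because AATC is the core of the sequence that GFI1 is known to bind. The sequences run from 250 bases before to 50 bases after the annotated start (GRCm38.p6, minus strand), at chr2:62412182-62412481 for Dpp4 and chr16:46120199-46120498 for Cd96, with AATC on either strand (AATC or GATT) in capitals.
Dpp4: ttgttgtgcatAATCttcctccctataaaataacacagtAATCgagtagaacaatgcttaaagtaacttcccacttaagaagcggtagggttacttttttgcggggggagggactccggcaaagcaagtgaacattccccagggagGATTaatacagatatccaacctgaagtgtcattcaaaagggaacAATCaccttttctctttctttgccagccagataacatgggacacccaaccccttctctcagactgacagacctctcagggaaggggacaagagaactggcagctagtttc
Cd96: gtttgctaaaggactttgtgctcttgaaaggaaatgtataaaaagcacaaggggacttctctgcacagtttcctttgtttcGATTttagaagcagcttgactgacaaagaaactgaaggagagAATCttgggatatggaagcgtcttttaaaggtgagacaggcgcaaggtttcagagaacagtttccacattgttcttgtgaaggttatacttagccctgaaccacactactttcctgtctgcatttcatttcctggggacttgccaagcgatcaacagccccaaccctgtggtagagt
Dpp4 holds 4 matches and Cd96 holds 2. Of 32851 promoter windows of 300 bases in the same set, 73.1% hold at least 1 match, 44.5% at least 2 and 10.1% at least 4. The longer AATCAC (or GTGATT on the other strand), which contains AATC, occurs 1 time in the Dpp4 window, 0 times in the Cd96 window and in 10.4% of all windows. A match describes these letters and is not a measured site.

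The other peptidases of the DPP4 family had no common direction in KO. Of 10 measured members, 5 were lower and 5 higher in KO, with a median of -0.07 beside -0.02 over all genes, where 53.1% of genes were lower. Fap, the closest relative of Dpp4, was at 6.36 in KO and 5.46 in WT (0.90 ± 0.50), and Dpp7, a lysosomal dipeptidase, at 7.03 and 6.15 (0.87 ± 0.40). Both had limma adjusted p = 1 over all genes. Among 7 measured genes for substrates, their receptors and partners of DPP4, 4 were lower, with a median of -0.15. The largest differences there were those of Cav1, caveolin (-0.91 ± 0.49), and Cxcr4, the CXCL12 receptor (-0.31 ± 0.17), again with adjusted p = 1. Limma called 0 genes of these 2 lists and 0 had an unadjusted p under 0.05. Over all 14201 genes it called 0 (0% of genes), with 680 at an unadjusted p under 0.05.

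For Cd96 the lower gene value rested on 2 of its 4 probe sets. The gene value was 6.54, 6.71 and 6.21 on the WT arrays and 5.44, 4.79 and 4.91 on the KO arrays, without overlap. The means were 6.48 ± 0.25 and 5.05 ± 0.34 (SD, n = 3), a difference of -1.44 ± 0.27, or 2.71-fold. Probe set 10439759 read 7.16, 7.64 and 7.03 in WT and 4.07, 3.97 and 3.34 in KO, a difference of -3.48 without overlap. All 3 KO readings there lay under the 5th percentile of their arrays (which ran from 4.39 to 5.65 over the 12 arrays), so the size is not exact. Probe set 10439760 read 6.89, 7.05 and 5.72 in WT and 4.58, 3.71 and 5.60 in KO, and the groups were close at WT 3 and KO 3. Every probe set in the table reaches at least 6.14 on some array, and 10439760 did so only in WT. It may be in the table only for its high WT readings, so nothing is read from its lower values in the other genotypes. The remaining probe sets differed little between WT and KO. For 10439747 the WT arrays read 5.72, 5.84 and 6.42 and the KO arrays 6.02, 6.65 and 5.23, and for 10439754 the KO mean was 0.09 above WT.

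The Cd96 gene value was below WT in both knock-in groups, but this was not so at every probe set. The gene value was 5.78, 6.01 and 5.01 in wtKI and 5.23, 5.56 and 5.50 in SNP, all below the lowest WT array. The differences from WT were -0.88 ± 0.27 for wtKI and -1.05 ± 0.27 for SNP. Over all genes, 6.84% had every wtKI array below WT and 12.8% every SNP array. The step from WT to wtKI (0.88) exceeded the pooled SD of these groups (0.41), the step from wtKI to SNP (0.17) did not (0.39), and that from SNP to KO (0.39) exceeded its SD (0.27) with overlapping arrays. The probe set 10439759 split the wtKI group, with 6.76 and 7.41 on wtKI 1 and wtKI 2 and 3.59 on wtKI 3, and read 3.49, 5.14 and 5.03 in SNP. Probe set 10439760 read 5.12, 4.95 and 3.94 in wtKI and 5.88, 2.68 and 4.71 in SNP. All SNP readings of 10439759 and all wtKI readings of 10439760 lay under the 5th percentile of their arrays. The sizes of the Cd96 differences between the knock-in groups and WT are therefore not exact. The gene values also include 10439760, from whose lower values nothing is read, so their gap from WT is only a description. At 10439747 and 10439754 the knock-in means lay 0.09 and 0.35 above WT for wtKI, and 0.51 above and 0.21 below it for SNP.

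Genes around CD96 in the nectin receptor system showed no common direction in KO. Of 11 measured members 6 were lower, with a median of -0.05, and limma called 0, with 0 at an unadjusted p under 0.05. Cd226, an activating receptor that competes with CD96 for PVR, was at 6.53 in KO and 6.02 in WT (0.51 ± 0.34), and Pvr itself at 5.95 and 6.32 (-0.38 ± 0.53), both with adjusted p = 1. T and NK cell markers were examined because CD96 and DPP4 are both found on those cells. Of 13 measured markers 5 were lower in KO, with a median of 0.06, and their mean level was 6.11 to 6.39 on the WT arrays, 6.30 to 6.46 on KO, 6.06 to 6.55 on wtKI and 6.36 to 7.98 on SNP, the top value being SNP 1. No marker was under the 5th percentile on all arrays, and 6 were under it on some array. Thy1, a surface protein of T cells and some progenitors, was at 7.22 in KO and 5.42 in WT (1.81 ± 0.55, adjusted p = 0.738), and Klrb1c, the NK1.1 antigen, at 3.23 and 4.59 (-1.36 ± 1.29, adjusted p = 1). Limma called 0 of the 13, with 1 at an unadjusted p under 0.05. In bulk RNA fewer cells of a type and less RNA per cell cannot be told apart.

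Among the lists of other cell types, the mast cell, basophil and eosinophil markers had the largest median difference between KO and WT. All 10 measured markers had a higher mean in KO than in WT, with a median of 1.00, and their mean level was 8.10 to 8.33 on KO, 6.71 to 7.78 on WT, 7.16 to 8.31 on wtKI and 6.90 to 7.52 on SNP. Fcer1a, a chain of the IgE receptor, was at 8.04 in KO and 4.66 in WT (3.39 ± 0.79, limma adjusted p = 0.373). Of the stem and early progenitor list, 10 of 13 were higher in KO (median 0.31), as were 9 of 12 in the dendritic cell list (0.21) and 8 of 11 in the erythroid list (0.25). The erythroid mean level was 7.20, 5.53 and 5.69 on KO 1 to KO 3, against 6.07, 5.56 and 6.30 on WT. Only KO 1 lay above the WT arrays there. The dendritic mean level was 7.22, 6.75 and 6.57 on KO, against 6.52, 6.71 and 6.70 on WT. KO 1 was again the highest, and KO 3 lay within the WT range. Of the late neutrophil list, 11 of 17 were lower (median -0.25), and single genes differed by more than the 4 genes did. Ngp, a granule protein, was at 4.49 in KO and 7.68 in WT (-3.19 ± 1.15, limma adjusted p = 0.896). Ltf, lactoferrin, Camp, the cathelicidin, and S100a9, a calgranulin, were lower by -2.40 ± 1.05, -2.14 ± 1.06 and -1.71 ± 0.86 (adjusted p = 1). Ltf, Camp and S100a9 were named after their values were seen and do not stand for the list, in which 6 of 17 genes were higher in KO. Among those 6, the collagenase gene Mmp8 had a mean of 10.23 in KO against 6.87 in WT (3.36 ± 0.72, limma adjusted p = 0.286). The mean level of the late neutrophil list was 5.98 to 6.99 on KO and 6.29 to 7.40 on WT. Genes with a lower mean in KO were also 9 of 13 in the GMP list (-0.16), 6 of 10 in the monocyte list (-0.15) and 5 of 8 in the B-lineage list (-0.03). In the GMP list the largest difference was that of Csf2rb, which was higher in KO (1.18 ± 0.17, limma adjusted p = 0.104). Limma called 0 genes in any of these lists, with 0 to 4 in a list at an unadjusted p under 0.05. The part of such cells in the lower values of the 4 genes was not tested.

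Adamts6 was lower in KO alone among the 4 genotypes when read as a gene value. It was at 6.53, 6.16 and 6.49 on WT, 4.51, 5.28 and 4.96 on KO, 6.56, 6.33 and 6.50 on wtKI and 6.70, 6.32 and 6.13 on SNP. The KO arrays lay below the other 9, which overlapped each other. KO was lower than WT by -1.48 ± 0.23, or 2.78-fold, while wtKI and SNP differed from WT by 0.07 ± 0.23 and -0.01 ± 0.23. The steps between wtKI, WT and SNP (0.07 and 0.01) were below their pooled SDs (0.17 and 0.25), and the step from SNP to KO (1.47) was above it (0.34). Over all genes, 5.55% had every KO array below wtKI and 6.71% every KO array below SNP.

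The 7 Adamts6 probe sets did not give this pattern together. In KO 5 were lower than in WT and 2 higher, from -2.66 to 0.46. All KO arrays lay below WT at 3 of the 7, where 6.32% of all probe sets did so. Probe set 10406985 came closest to the gene value, with 6.91, 6.26 and 6.94 in WT, 4.62, 6.03 and 5.06 in KO, 6.42, 6.22 and 7.28 in wtKI and 5.66, 6.42 and 6.74 in SNP. Its KO arrays lay below WT, but KO 2 lay above SNP 1. Probe set 10406993 read 7.26, 5.81 and 7.63 in WT, 3.92, 3.07 and 5.73 in KO, 6.28, 6.69 and 4.28 in wtKI and 4.53, 3.36 and 5.79 in SNP. At that probe set the SNP arrays were as low as the KO arrays. Probe set 10406984 read 3.84, 2.18 and 3.81 in WT and 1.28, 0.95 and 2.14 in KO, all under the 5th percentile of their arrays, but 5.91, 5.53 and 3.57 in wtKI and 7.12, 6.70 and 6.72 in SNP. There the knock-in arrays, apart from wtKI 3, stood above all WT and KO arrays. The probe set with the highest mean, 10406983, read 7.63, 8.04 and 8.05 in WT and 8.38, 7.83 and 7.82 in KO, with a KO mean 0.10 above WT.

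Relatives of Adamts6 had no common direction either. Of 20 measured ADAMTS and ADAMTS-like genes 9 were lower and 11 higher in KO, with a median of 0.02. The largest differences were those of Adamtsl1, a secreted ADAMTS-like protein (6.13 in KO and 6.43 in WT, -0.30 ± 0.20), and Adamts10, a metalloprotease that acts on fibrillin microfibrils (6.81 and 6.53, 0.28 ± 0.25), both with limma adjusted p = 1. Limma called 0 of the 20, with 0 at an unadjusted p under 0.05.

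Pde6c had the smallest replicate spread of the 4 genes in WT and KO, and only 2 probe sets. Its gene value was 6.76, 6.90 and 6.85 in WT, 5.43, 5.51 and 5.52 in KO, 6.37, 5.73 and 6.01 in wtKI and 6.88, 6.49 and 6.67 in SNP. The KO arrays were lower than every other array. KO was lower than WT by -1.35 ± 0.19, or 2.55-fold, wtKI by -0.80 ± 0.19 and SNP by -0.16 ± 0.19. The steps from SNP to wtKI (0.64) and from wtKI to KO (0.55) exceeded their pooled SDs (0.26 and 0.23), and the step from WT to SNP (0.16) was near its SD (0.15) with overlapping arrays.

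The Pde6c difference was carried by 1 probe set. At 10462907 the WT arrays read 6.25, 6.51 and 6.13, KO 2.84, 4.27 and 4.33, wtKI 5.33, 4.36 and 4.50 and SNP 5.63, 5.38 and 5.95. The KO arrays lay lowest, followed by wtKI, SNP and WT without overlap. All KO and wtKI readings were under the 5th percentile of their arrays. The sizes of the Pde6c differences for KO and wtKI are therefore not exact. Every probe set in the table reaches at least 6.14 on some array, and 10462907 did so only in WT. It may be in the table only for its high WT readings, so nothing is read from its lower values in the other genotypes. At 10462906 the WT arrays read 7.28, 7.29 and 7.58, KO 8.03, 6.76 and 6.70, wtKI 7.41, 7.10 and 7.52 and SNP 8.12, 7.59 and 7.38. KO 1 there was above all WT arrays and the other KO arrays below them. The small spread of the gene value in KO (SD 0.05) came about because KO 1 was the highest KO array at this probe set and the lowest at the other. Of 21 other phosphodiesterase genes 9 were lower in KO and 12 higher, with a median of 0.03. Pde8a, which breaks down cyclic AMP, was 1.40 ± 0.44 above WT (limma adjusted p = 0.789), and Pde7b, likewise specific for cyclic AMP, was -0.85 ± 0.52 from it (adjusted p = 1). Of 11 cone phototransduction genes 3 were lower and 8 higher, with a median of 0.22. Gngt2, the gamma subunit of the cone G protein, was 1.59 ± 0.63 above WT and Opn1mw, a cone opsin, 0.94 ± 0.40 (limma adjusted p = 0.993 and 1). Limma called 0 genes of both lists, with 1 and 3 at an unadjusted p under 0.05.

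**Figure D3:**
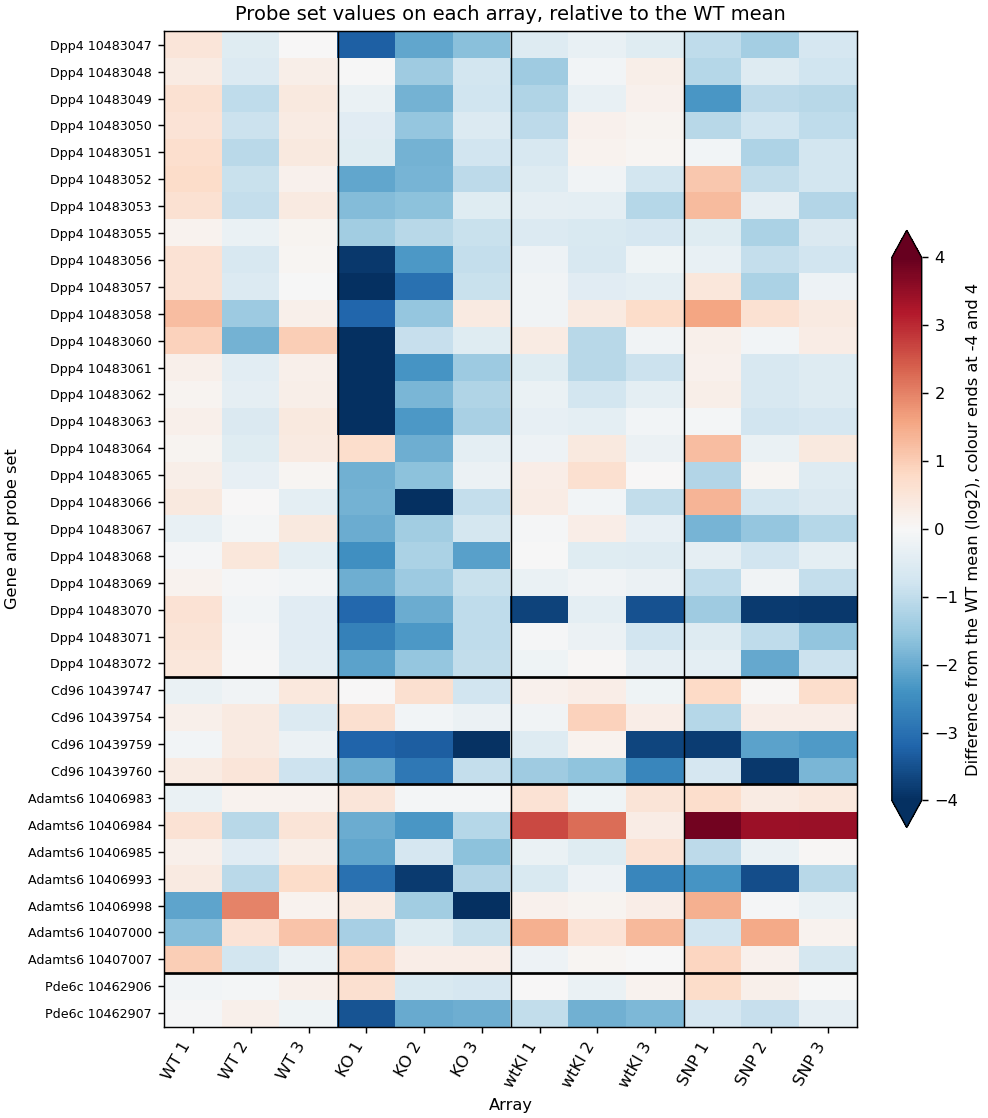
Each of the 37 probe sets (rows, grouped by gene) on each of the 12 arrays (columns, grouped by genotype), as the difference from the mean of the WT arrays (log2; blue lower, red higher, colours ending at -4 and 4). The KO columns are blue over nearly the whole Dpp4 block, while in the Cd96, Adamts6 and Pde6c blocks single rows carry the colour, among them Adamts6 10406984, which is red in wtKI 1, wtKI 2 and all SNP arrays.

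The KO minus WT differences of a gene's probe sets spanned 2.26 for Pde6c, 3.58 for Cd96, 3.12 for Adamts6 and 3.17 for Dpp4. In all, 34 of the 37 probe sets had a lower KO mean, where 55.4% of all probe sets did. All KO arrays lay below WT at 21, where 6.32% of all probe sets did so. Of these, 15 belonged to Dpp4 and 6 were among the 13 outside it. Nothing is read from these spans and counts, since the same difference chose the genes.

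The correlation of probe sets over the 12 arrays differed between the 4 genes. It had a median of 0.58 over the 276 pairs of Dpp4 probe sets, 0.17 over the 21 pairs of Adamts6 (from -0.69 to 0.57) and -0.11 over the 6 pairs of Cd96 (from -0.31 to 0.47), and it was 0.02 for the single pair of Pde6c. The points of each correlation share arrays and the differences between genotypes.

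SNP was compared directly with wtKI. The difference of these means uses no array of the contrast that chose the genes, but the standard errors, intervals and p-values come from the fit over all 12 arrays, so the WT and KO arrays enter them. None of the 4 genes passed over all genes. Pde6c was 0.64 ± 0.19 higher in SNP (limma adjusted p = 0.55), with all SNP arrays above all wtKI arrays. Its probe set 10462907 differed by 0.93 without overlap, but all wtKI readings there lay under the 5th percentile of their arrays. Its other probe set, 10462906, differed by 0.36 with overlapping arrays. The standard error of 0.19 includes the small spread of Pde6c in WT and KO (SD 0.07 and 0.05). Fitted on the SNP and wtKI arrays alone, Pde6c had a standard error of 0.23 and an adjusted p = 0.679. In that fit the adjusted p was 0.686 for Dpp4, 0.836 for Cd96 and 0.899 for Adamts6. A lack of overlap in either direction was found for 14.6% of genes, and all SNP arrays lay below all wtKI arrays in 7.36%. The other 3 genes had a lower mean in SNP, as 52.5% of genes did. Dpp4 was -0.29 ± 0.33 from wtKI (95% interval -1.02 to 0.45), Cd96 -0.17 ± 0.27 (-0.77 to 0.43) and Adamts6 -0.08 ± 0.23 (-0.58 to 0.42), with limma adjusted p = 0.742, 0.814 and 0.903. The arrays of these 3 genes overlapped between SNP and wtKI, and the intervals leave room for differences of up to about 1 on the log2 scale for Dpp4. Limma called 0 of 14201 genes here (0%), with 1265 at an unadjusted p under 0.05. The wtKI group held female mice on 2 of its 3 arrays and the SNP group none. With sex as a term the Pde6c difference was 0.48 ± 0.23 (adjusted p = 0.95).

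Among the 37 probe sets none passed in SNP against wtKI, with limma adjusted p from 0.601 to 0.998 over all 105661 probe sets and 3 at an unadjusted p under 0.05, as were 8037 of all probe sets (7.61%). Limma called 3 of all probe sets (0.00284%). The SNP and wtKI arrays lay apart at 5 of the 37 probe sets, and at 13.1% of all (7.93% with SNP below). The largest differences were those of Adamts6 10406984 (1.85 higher in SNP, adjusted p = 0.645) and Dpp4 10483067 (-1.48, adjusted p = 0.601), both without overlap. For Dpp4, 16 of 24 probe sets were lower in SNP, with a median of -0.28, and 57.6% of all probe sets were lower there. Without SNP 1 the count was 20 of 24, with a median of -0.41.

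**Figure D4:**
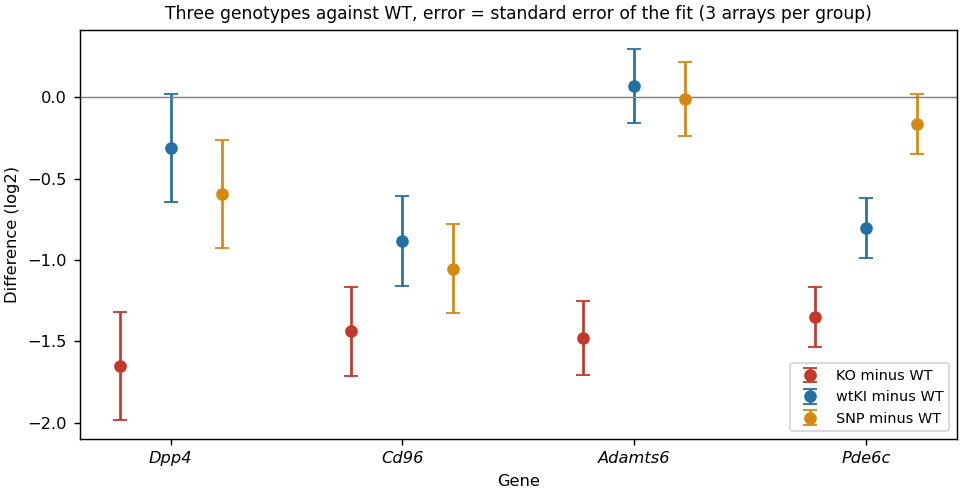
Differences of KO, wtKI and SNP from WT (log2, vertical axis) in the gene values of Dpp4, Cd96, Adamts6 and Pde6c; error bars are standard errors of the fit with 3 arrays per group. KO lies between -1.35 and -1.65 for all 4 genes, while the knock-in groups lie near 0 for Adamts6, near -0.88 and -1.05 for Cd96, and apart from each other for Pde6c (-0.80 in wtKI and -0.16 in SNP). The 3 comparisons share the WT arrays.

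The genes most like each of the 4 were looked up by Pearson's r of gene values over the 12 arrays, as a description. For Dpp4 they were Unc119b, a lipid-binding trafficking protein (r = 0.95), Hmgn3, a nucleosome-binding protein (0.92), and Slpi, an inhibitor of neutrophil serine proteases (0.88). For Cd96 they were Tifa, an adaptor in NF-kB signalling (0.90), Adam15, a membrane metalloprotease (0.82), and Slc25a45, a mitochondrial carrier (0.82). For Pde6c they were Ptger2, a prostaglandin E receptor (0.88), Cpeb2, a regulator of translation (0.86), and Zfp185 (0.86), and for Adamts6 Slpi (0.88), Ptger2 (0.85) and Angptl1, an angiopoietin-like protein (0.83). With KO 1 and SNP 1 left out (10 arrays), the r of Unc119b with Dpp4 and of Tifa with Cd96 were 0.95 and 0.95, and both stood in place 2 of their orders. Those of Slpi, Ptger2 and Angptl1 with Adamts6 were 0.76, 0.71 and 0.65, and these genes stood in places 110, 243 and 450. The 4 genes correlated with each other by r of 0.44 (Adamts6 and Cd96) to 0.85 (Adamts6 and Dpp4). All of these values share arrays and include the KO against WT difference that chose the 4 genes.

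In the order of difference over standard error among the 7541 genes lower in KO, Pde6c held place 1, Adamts6 place 2, Cd96 place 4 and Dpp4 place 5. Pyhin1, an interferon-inducible gene of the HIN-200 family, lay between them in place 3 (-1.37 ± 0.24), and Ptger2 came next in place 6 (-1.91 ± 0.39). By the size of the difference alone the 4 stood in places 65, 44, 47 and 27. The standard error of Pde6c includes its small spread in KO (SD 0.05). The 4 genes were chosen from this contrast, so high places were set in advance and are only a description.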

How the data were processed

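The table holds log2 signals that the authors deposited, with RMA as the only tool that the submitters' processing notes name. The sources used here give neither its version and settings nor a genome build. Every probe set reaches at least 6.14 on some array, so genes low in all samples may not be in the table. Of 105661 probe sets, 98975 carry 1 gene symbol in the platform annotation, 1703 several and 4983 none. The first kind gave 14201 gene values by median polish.

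Genes and probe sets were fitted with limma 3.58.1 under R 4.3.3, using lmFit and eBayes over the 12 arrays without covariates, with Benjamini-Hochberg adjustment over the whole table and a threshold of 0.05. The script was tested on simulated data. For arrays, their number limits the precision. The 4 genes, the lists and the rules were chosen with earlier results of these data known. Named besides the 4 genes were up to 2 genes per list with the largest KO minus WT difference, Gfi1, the 3 most alike genes and the neighbours in order. Mpo, Ltf, Camp, S100a9 and single probe sets were named after their values were seen. Promoters came from a set of RefSeq windows (GRCm38.p6) that held 2 of the 4 genes.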

Additional observations from a re-analysis of the deposited data

How the results depend on the processing

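The Dpp4 difference between KO and WT kept its sign under all alternatives, from -1.38 to -2.03 with each array left out and -2.46 at the probe set with the highest mean. Taking that probe set removed the difference of the other genes, at 0.10 for Adamts6, 0.095 for Cd96 and -0.22 for Pde6c. With each array left out these ran from -1.27 to -1.66, from -1.31 to -1.63 and from -1.32 to -1.39. Pde6c moved by more than its replicate spread with repeated quantile normalization (-1.28) and sex as a term (-1.43). In SNP against wtKI no alternative called any of the 4 genes. Adamts6 changed sign with the plain mean (0.0039), the probe set with the highest mean (0.18), median centring (0.031), the median over probe sets tested singly (0.16) and without SNP 3 (0.046), Cd96 with repeated quantile normalization (0.17) and without wtKI 2 (0.034), and Dpp4 at the probe set with the highest mean (0.15). With each array left out they ran from -0.24 to 0.05, -0.47 to 0.03 and -0.45 to -0.18, and Pde6c from 0.49 to 0.81. At the probe set with the highest mean, Pde6c was 0.36 higher in SNP (limma adjusted p = 0.739). The cause of these changes was not tested. Genes called in SNP against wtKI numbered 0 in the fit reported and 1 with only the groups compared, and 0 to 2 with each array left out, 2 being without WT 1 or without wtKI 1. In KO against WT they numbered 0, and 3 with the plain mean, 1 with repeated quantile normalization, 498 with array weights (KO 2 then had the highest weight, 6.83), 1 with only the groups compared, 4 with both KO 1 and SNP 1 left out, and 0 to 4 with each array left out, 4 being without SNP 1. Same-numbered arrays of WT and KO, and of wtKI and SNP, correlated by -0.02 to 0.11 in their deviations, which gave no sign of pairing there. Arrays of KO and SNP were not compared in this way. An effect shared by KO 1 and SNP 1 was therefore not tested. With the replicate number as a block, limma called 0 genes in both comparisons and Pde6c kept 0.64 (adjusted p = 0.479). Leaving out the dimmest 30% of genes removed Pde6c, Adamts6 and Cd96 and kept Dpp4. Median polish with arrays swept first was added after seeing the data and gave -1.62 for Adamts6 in KO against WT.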
